A study of Mus musculus with 2 samples.

Results

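The cells described here were mouse macrophages recognised by their transcripts of complement C1q, from a single-cell RNA-seq study of the retinal pigment epithelium (RPE) after doxorubicin (Dox). Of 35627 cells that passed the filters, 421 (1.18%) were C1q-positive: 281 of 20189 cells in the control library and 140 of 15438 in the Dox library. A cell was kept when it had more than 500 unique molecular identifiers (UMIs, one tag for each captured transcript), between 200 and 6000 genes and a mitochondrial share under 0.2. It was counted as C1q-positive when C1qa, C1qb and C1qc together reached 10 UMIs and 2000 counts per 1000000 of its own UMIs (CPM), Rpe65 stayed under 10 UMIs and Dcn under 2000 CPM. These values chose the cells, so the C1q levels below are a description and no test was made on them.

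Both libraries came from C57BL/6J mice, 3 months old and male by the study's methods, and no transgene was used. The Dox mice received 1 µl of doxorubicin at 100 ng/µl under the retina, and the control mice, which are labelled only as control, received phosphate-buffered saline by the study's methods. Eyes were taken 7 days later, the retina was removed, and the RPE, choroid and sclera were dissociated with papain before dead cells were removed. Each library pooled 10 eyes of 5 mice, so each group is 1 library with no replicate, the spread between mice is not known, and the intervals below cover counting error only.

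C1q is the recognition molecule of the classical complement pathway, assembled from the chains A, B and C. Tissue macrophages are its main source in the body, while most monocytes and dendritic cells make little of it. The choroid, the vascular layer behind the RPE, holds resident macrophages along its vessels and stroma, and macrophages are also known to gather at the RPE after injury. Such cells take up debris and lipid through scavenger and lipid receptors, present antigen on MHC class II molecules, recycle iron and signal through chemokines and cytokines.

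The 3 C1q genes lie side by side on the minus strand of chromosome 4 (GENCODE vM21, GRCm38), with C1qb at chr4:136880129-136886187, C1qc at chr4:136889804-136893065 and C1qa at chr4:136895917-136898803. Summed over the C1q-positive cells, C1qb had 5386 CPM in control and 4390 in Dox. C1qa had 4224 CPM in control and 3054 in Dox. C1qc had 4124 CPM in control and 3271 in Dox. All 3 chains were detected in 275 of 281 control cells (97.9%) and in 138 of 140 Dox cells (98.6%), and C1qb gave 39.2% of the C1q UMIs in control and 41.0% in Dox. The median cell held 11027 CPM of C1q in control and 11152 in Dox, so the middle of both libraries stood far above the threshold.

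Near the threshold, 24 control and 13 Dox cells had 10 to 12 C1q UMIs. The cells with the fewest C1q UMIs inside the gate had 10, and the lowest C1q level inside it was 2294 CPM in control and 2465 in Dox. Outside it, 115 control and 65 Dox cells had at least 2000 CPM but at most 9 UMIs, and the highest level among cells that had 10 UMIs but missed the CPM limit was 1445 in control and 1810 in Dox. The limit on Rpe65 removed 6 control cells and 1 Dox cell, and the limit on Dcn removed 43 and 19. No cell barcode was shared between the C1q-positive cells of the libraries, although 441 barcodes occurred in both deposited matrices. Of the C1q-positive cells, 9 in control and 3 in Dox carried a barcode that also occurred in the other library.

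The control C1q-positive cells held from 688 to 22525 UMIs with a median of 4504, close to 4495 over all kept cells of that library. The Dox cells held from 557 to 36766 with a median of 4024, below the 4999 over all kept cells of that library. The median number of genes was 1660 in control and 1641 in Dox, and the median mitochondrial share was 1.20% and 1.09%. Summed, 1513860 UMIs in control and 757261 in Dox stand behind the levels given here.

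The macrophage label was checked against genes that the gate did not use. Lyz2, the lysozyme of myeloid cells, was at 11512 CPM in control and 15186 in Dox, where 5 cells held 47.6% of its UMIs. The median cell held 5990 CPM of Lyz2 in control and 5893 in Dox. Mrc1, the mannose receptor of resident macrophages, was at 458 CPM in control and 424 in Dox. All 10 further macrophage markers were detected in both libraries, with a summed level of 12249 CPM in control and 12782 in Dox, and Ctss, a lysosomal protease, was the most abundant of them at 3324 and 3836 CPM. At least 10 UMIs of these 10 genes were found in 267 of 281 control cells and 130 of 140 Dox cells. Several of these genes are shared with other myeloid and with NK cells, and 76 of 305 control and 69 of 190 Dox T or NK cells also reached 10 UMIs, as did 194 of 223 and 127 of 136 C1q-low antigen-presenting cells. By level the median cell held 10254 CPM of the 10 genes in control and 9912 in Dox, against 4952 and 4831 in C1q-low antigen-presenting cells and 277 and 511 in T or NK cells. The label thus held for the sum of the cells, and these genes do not settle it cell by cell.

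Markers of other cells were at most slightly above their level in T or NK cells, or were near 0. The RPE markers summed to 3234 CPM in control and 5334 in Dox, and the secreted transthyretin gene Ttr led them at 2275 and 3871 CPM. T or NK cells, a class that should not make them, held 4584 CPM of the same RPE markers in control and 6262 in Dox. Melanocyte markers summed to 2055 CPM in control and 693 in Dox, against 3596 and 628 in T or NK cells. Fibroblast markers reached 705 and 453 CPM, against 1035 and 727 in T or NK cells, but Dcn, which led them at 270 and 173 CPM, was limited by the gate. Smooth muscle or pericyte markers reached 598 and 100 CPM, against 937 and 578. The 9 T or NK cell markers summed to 60.8 CPM in control and 40.9 in Dox, the 8 dendritic cell markers to 52.2 and 39.6, the 6 neutrophil markers to 40.3 and 40.9, the 7 B or plasma cell markers to 33.0 and 23.8, and the 5 Schwann cell markers to 21.8 and 9.24. The 5 mast cell markers summed to 17.2 and 3.96 CPM, the 5 endothelial markers to 7.93 and 5.28, the 5 rod markers to 1.32 and 5.28, and the 4 red blood cell markers to 51.5 and 3.96. Gzma led the T or NK cell markers at 29.1 CPM in control and Cd3e at 18.5 in Dox, and none of the 9 was at 0 in both libraries. Cd79b led the B cell markers at 22.5 and 21.1 CPM, while Mzb1 and Igkc were at 0 in both libraries. Csf3r led the neutrophil markers at 37.0 and 25.1 CPM, while Ly6g and Retnlg were at 0 in both.

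C1q-positive cells took a smaller share of the Dox library. They made up 1.39% of kept cells in control (exact binomial 95% interval 1.23 to 1.56) and 0.907% in Dox (0.763 to 1.07), with a log2 ratio of -0.62 (-0.92 to -0.32) beyond counting error. C1q-low antigen-presenting cells, here cells with at least 10 UMIs and 2000 CPM of H2-Aa, H2-Ab1 and H2-Eb1, C1q under 2000 CPM, fewer than 2 UMIs of Cd79a and Cd79b and the same limits on Rpe65 and Dcn, made up 1.10% in control and 0.881% in Dox, a log2 ratio of -0.33 (-0.64 to -0.01). T or NK cells, with at least 5 UMIs of Cd3d, Cd3e, Cd3g and Nkg7, made up 1.51% and 1.23%, a log2 ratio of -0.30 (-0.56 to -0.03), so the shares of these classes were lower beyond counting error too. Per C1q-low antigen-presenting cell, the log2 ratio of C1q-positive cells was -0.29 (-0.73 to 0.15), and per T or NK cell it was -0.32 (-0.73 to 0.08). Both intervals, which are exact conditional intervals that include the counting error of either class, reach 0. With 1 library a group, a difference between treatments and a difference between dissociations cannot be told apart.

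Against all other kept cells, 746 of 2861 genes were at least 2-fold higher in the C1q-positive cells (26.1%) and 261 were at least 2-fold lower (9.12%). The 2861 genes are those with at least 50 UMIs over both libraries of C1q-positive cells and at least 50 CPM in either. Because the cells were chosen by C1q, these folds are a description. Ccl12, a monocyte-attracting chemokine, led with 595 CPM against 2.55, a 233-fold difference. The C1q genes followed at 232-fold (C1qb), 225-fold (C1qa) and 213-fold (C1qc). Folr2, the folate receptor of perivascular and other resident macrophages, stood at 169-fold, but at 70.9 CPM and in only 21 control and 11 Dox cells. The chemokine genes Ccl4, Pf4 and Ccl3 stood at 160-fold, 159-fold and 154-fold. The receptors Fcrls, Adgre1 (the F4/80 antigen), C3ar1 (the C3a receptor) and Trem2 (a lipid receptor) lay between 141-fold and 153-fold, and Il1a and Lilra5 reached 129-fold and 126-fold. Mrc1 was 110-fold and Lyz2 72.1-fold higher than in all other cells.

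**Figure D1:**
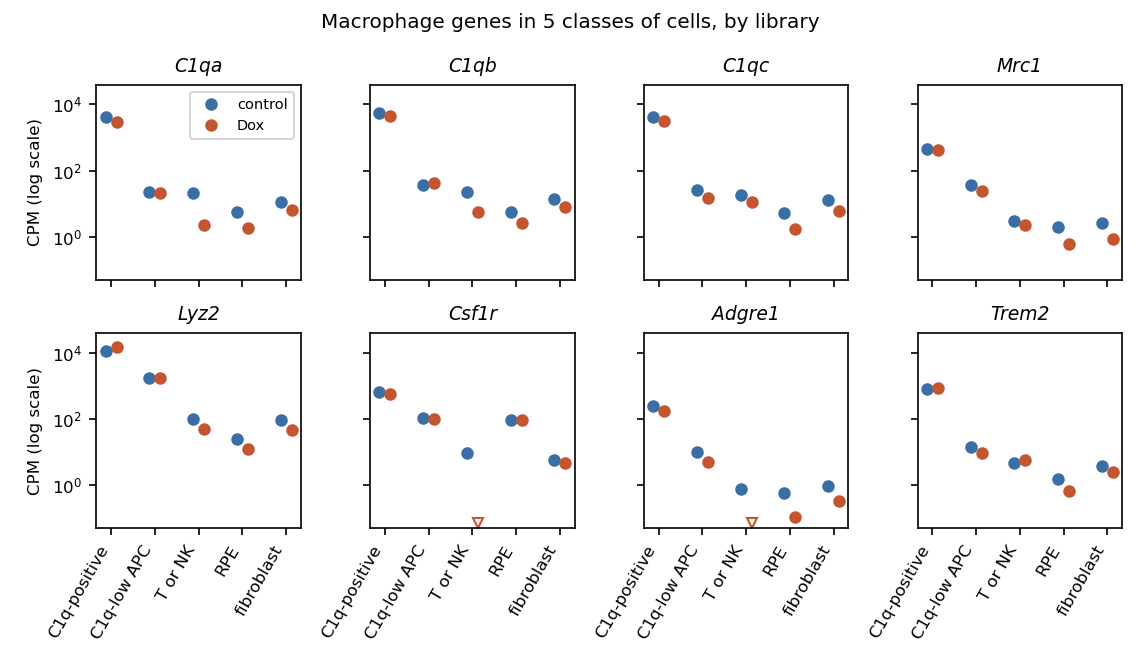
Level in CPM (log scale) of 8 macrophage genes in 5 classes of cells, with 1 point for each library and an open triangle where no UMI was counted. In C1q-positive cells Csf1r was at 661 CPM in control and 570 in Dox, while Lyz2 also reached 1725 and 1768 CPM in the C1q-low antigen-presenting cells.

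The C1q-low antigen-presenting cells were compared next, again as a description, since C1q and MHC class II chose the classes. Of the 2861 genes, 510 (17.8%) were at least 2-fold higher in C1q-positive cells than in that class and 112 (3.91%) at least 2-fold lower. Beside the C1q genes, the leading differences were Cbr2, a carbonyl reductase of resident macrophages, with a log2 ratio of 7.32, Atp6v0d2, a subunit of the proton pump of lysosomes, with 7.21, Pf4 with 6.64, Ccl8 with 6.37 and Trem2 with 6.07. The 2861 genes had to reach their minimum in the C1q-positive cells, which favours genes that are higher there. With the minimum of 50 CPM set on the mean of both classes, added after seeing the data, 12.5% of 2510 genes were at least 2-fold higher and 7.69% lower. Under that filter 15 of 18 resident macrophage genes, 14 of 18 lipid-associated genes and 23 of 29 lysosomal genes were at least 2-fold higher than in the C1q-low class. On the other side lay 7 of 12 monocyte genes and all 9 MHC class II genes, with median log2 ratios of -1.79 and -1.80. Outside the genes that chose either class, Clec10a, a lectin of dendritic cells and some macrophages, was lower, with a log2 ratio of -3.63, and S100a4, a calcium-binding protein, had -2.72.

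Among themselves the C1q-positive cells differed in MHC class II, in lipid and lysosome genes and in genes of resident macrophages. Clustering of the 421 cells gave 6 groups, which are numbered and not named because their genes overlap. Another resolution gave 5 or 11 groups. Summed over both libraries, the C1q genes varied about 2-fold between groups. C1qb ran from 3427 CPM in group 5 to 6596 in group 4, C1qa from 2462 in group 5 to 4950 in group 6 and C1qc from 2472 in group 5 to 5196 in group 4. The libraries differed in group 4, where C1qb was at 8364 CPM in control and 3799 in Dox and C1qc at 6644 and 2906. C1qa was at 6323 in control and 1738 in Dox, its lowest level of the Dox groups. In Dox, group 6 was highest for C1qb (5519.5 CPM) and C1qc (4185 CPM). Cd74, the invariant chain of MHC class II, ran from 884 CPM in group 4 to 46300 in group 3.

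Group 1, of 117 cells, was led over the other members by Cd4, Slc40a1 (the iron exporter ferroportin), Rdh10 (a retinol dehydrogenase), Vcam1, Stab1 (a scavenger receptor) and Fcrls, with Cox8b and Krt18 also among its first 12 genes. Its Mrc1 stood at 981 CPM while H2-Aa stood at 526, the second lowest of the groups, and its median depth was 2639 UMIs. Its Ttr, a gene of the RPE, was the highest of the groups at 5349 CPM. Group 2, of 114 cells, was led by Ccl12, Gpr65 and Hspa1b, with Ccl12 at 1274 CPM, Ccl8 at 390 and H2-Aa at 7384. Group 3, of 70 cells, was led by Ccr2, the receptor of monocytes for Ccl2, with 348 CPM, and by Tnip3, Cytip and Plbd1. It also had the highest Cd74, H2-Aa (11986 CPM) and Il1b (3865 CPM) of the groups, and Stmn1 and Top2a, genes of dividing cells, were at 460 and 140 CPM. Its Stmn1 rested on Dox, with 841 CPM against 260 in control, where groups 1 and 5 held 295 and 312.

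Group 4, of 65 cells, was led by Cst7, an inhibitor of lysosomal proteases, at 98.6-fold over the other members, a lead that rests on control, since 194 of its 197 Cst7 UMIs in this group were from control cells (592 CPM, against 14.5 in Dox). Atp6v0d2, Fbxo32, Fabp5 (a fatty acid carrier), Gpnmb (a glycoprotein of lysosomes and melanosomes) and Spp1 (osteopontin) followed, between 11.0-fold and 23.8-fold. Its Gpnmb stood at 6951 CPM, Fabp5 at 5553, Spp1 at 3652, Ctsd at 15828 and Apoe at 40009, each the highest of the 6 groups, while Mrc1 was the lowest at 37.4 CPM. Group 6, of 26 cells, was led by Fcna, Vsig4, Folr2 and Lyve1, genes of resident macrophages that line vessels and body cavities. It held Folr2 at 1096 CPM against at most 25.3 in the others, Lyve1 at 348, Cd163 at 408 and F13a1 at 1368.

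Group 5, of 29 cells, was led by Tnfaip6, Mfap4, Abi3bp and Crispld2, genes of connective tissue. Its smooth muscle and fibroblast markers summed to 5287 CPM, against at most 579 in any other group, its Lum was at 706 CPM and its Acta2 at 1379, where 408 of the Acta2 UMIs came from control cells (1769 CPM) and 2 from Dox cells (30.0 CPM). The median depth was 9935 UMIs and the median doublet score 0.324, the highest of the groups. It held 23 control and 6 Dox cells. The number of cells of each group in each library is a description and was not tested, since the genes that define the groups also differed between libraries. Every group held cells of both libraries, but the mix differed, with group 2 holding the most cells in control and group 1 in Dox. The values of Dox over control below are sums over all groups. Group 1 held 60 control and 57 Dox cells, group 2 held 87 and 27, group 3 held 49 and 21, group 4 held 44 and 21, and group 6 held 18 and 8.

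**Figure D2:**
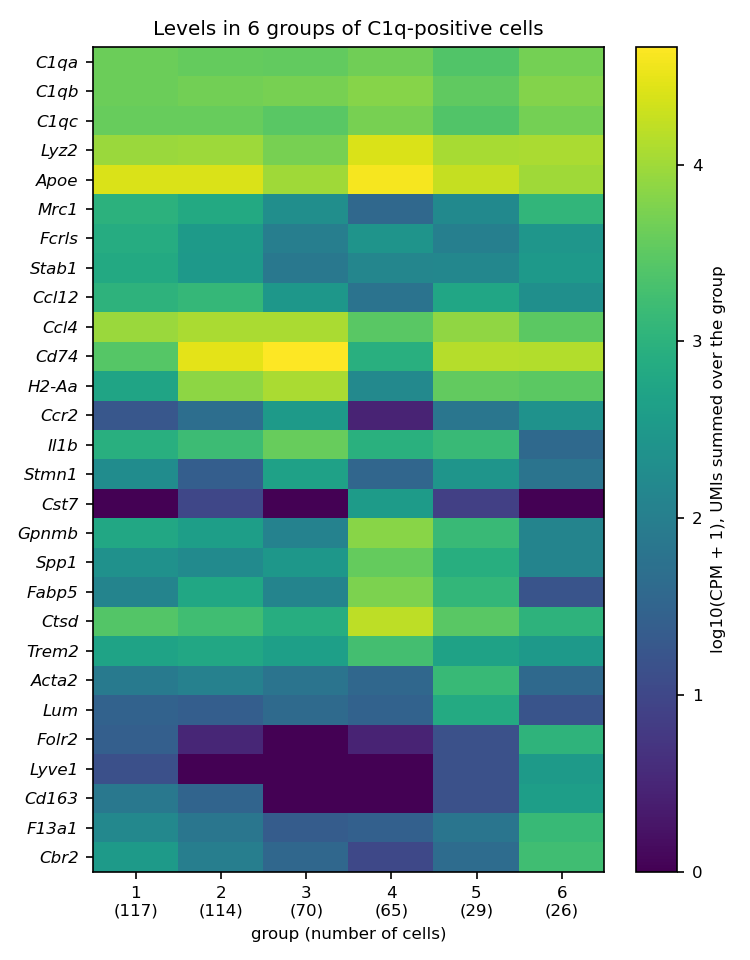
Level of 28 genes in the 6 groups of C1q-positive cells, as log10 of CPM + 1 with UMIs summed over each group (number of cells in brackets). C1qa, C1qb and C1qc were detected in every group. Summed over both libraries, Cd74 and H2-Aa were highest in group 3, Cst7, Gpnmb, Spp1, Fabp5 and Ctsd in group 4, Lum in group 5, and Folr2, Lyve1 and Cd163 in group 6.

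MHC class II and Gpnmb were mostly high in different cells in both libraries. Cells were ranked in each library by the summed CPM of 4 MHC class II genes and divided into 4 sets, of 70 or 71 cells each in control and 35 in Dox. From the lowest to the highest set, Gpnmb went from 3026 to 257 CPM in control and from 6897 to 83.4 in Dox, and Ctsd, the protease cathepsin D, from 10961 to 966 in control and from 12133 to 908 in Dox. Ccr2 ran the other way, from 30.8 to 277 CPM in control and from 12.9 to 254 in Dox, and so did Ccl4, from 5886 to 13036 and from 1262 to 10112. C1q itself was 18201 CPM in the lowest and 12448 in the highest set in control, and 8891 and 10809 in Dox, with no shared direction. The sets differed in depth, since the lowest had a median of 4781 UMIs in control and 3715 in Dox and the highest 5270 and 5958, and the part of depth in these levels was not tested.

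Cells with at least 2000 CPM of Gpnmb numbered 40 of 281 in control (14.2%, 10.4 to 18.9) and 16 of 140 in Dox (11.4%, 6.68 to 17.9), intervals that overlap. They held 85.2% of the Gpnmb UMIs in control and 94.1% in Dox. Their median MHC class II level was 220 CPM in control and 42.0 in Dox, against 20455 and 8248 in the remaining cells. Of the Gpnmb-high cells, 3 in control and 1 in Dox also held at least 10000 CPM of MHC class II. The limit is a point on a range, and 34 control and 14 Dox cells lay between 1000 and 4000 CPM.

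**Figure D3:**
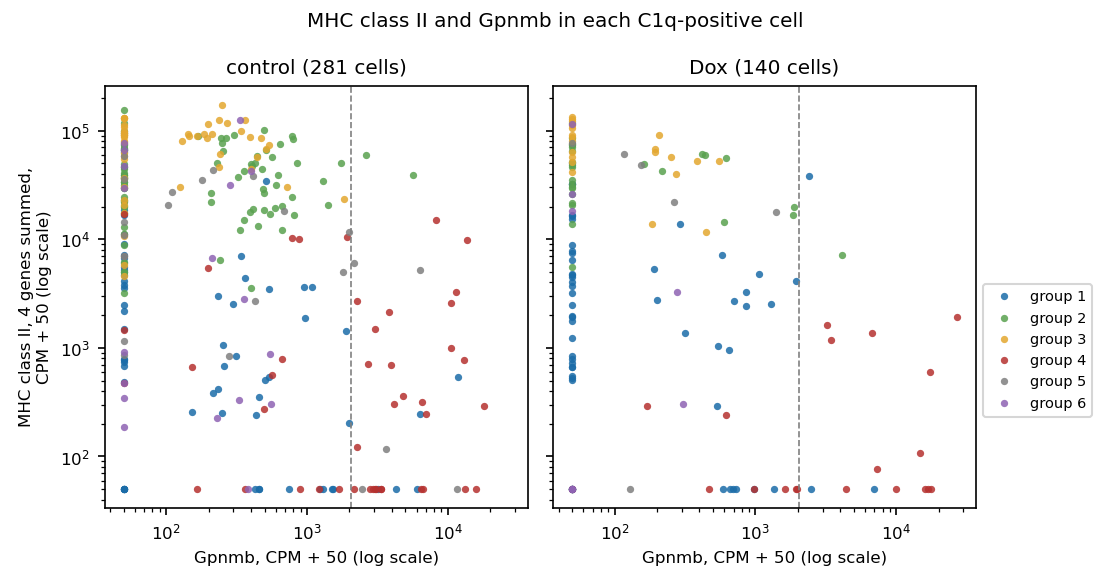
Each point is a C1q-positive cell, with Gpnmb on the x axis and 4 summed MHC class II genes on the y axis, both as CPM + 50 on log scales, and colours for the 6 groups. Most cells to the right of the dashed line at 2000 CPM of Gpnmb, 40 in control and 16 in Dox, lay low on the y axis.

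Dox and control C1q-positive cells were alike in most genes. The median log2 ratio of Dox over control over the 2861 genes was 0.01, and its lower and upper quartiles were -0.18 and 0.20. Only 22 genes (0.769%) were at least 2-fold higher in Dox and 43 (1.5%) at least 2-fold lower, and counting intervals lay above 0 for 10.6% of genes and below 0 for 10.6%. A gene could pass the minimum of 50 CPM through 1 library, as 18 of the 22 higher genes did through Dox and 32 of the 43 lower genes through control. With the minimum set on the mean of both libraries, added after seeing the data, 11 of 2585 genes (0.426%) were higher and 28 (1.08%) lower. A sum over cells can rest on a few deep ones, so the ratio was also computed without the cell with most UMIs of each gene and as a ratio of the mean CPM of cells. Of the 22 higher genes, 18 were past 2-fold without that cell and 16 by the mean of cells. Of the 43 lower genes, 41 and 28 were. Without group 5, chosen as a check after seeing the data, 30 genes were higher and 34 lower.

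**Figure D4:**
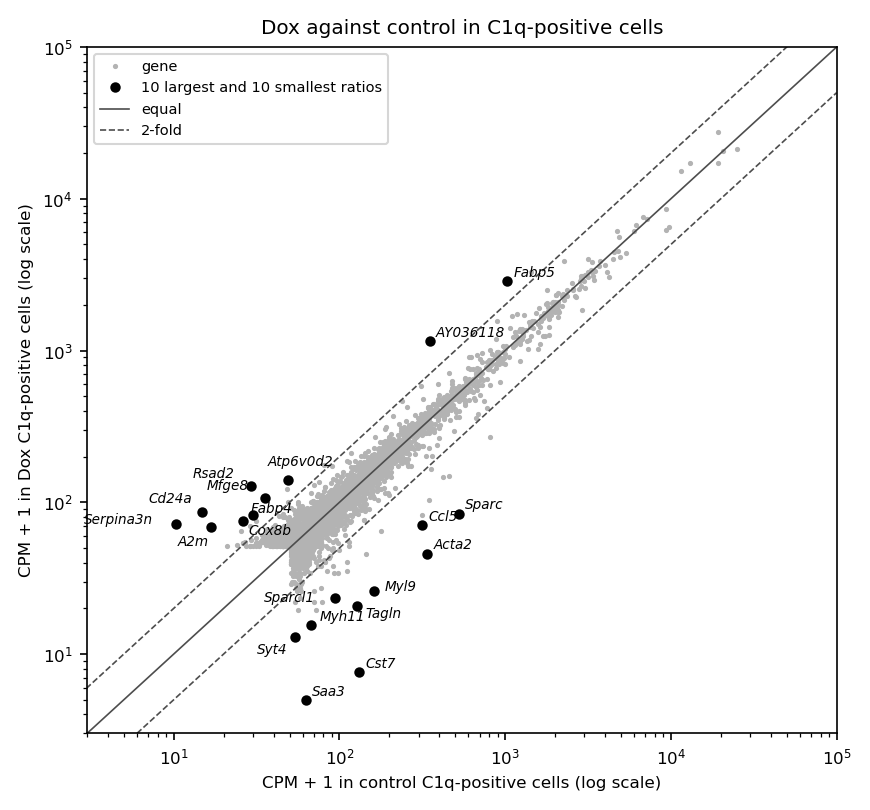
Each point is a gene among the 2861, placed by its CPM + 1 in control and in Dox C1q-positive cells on log scales, with lines for equal levels and for 2-fold differences. The 10 largest and the 10 smallest ratios are named, from Serpina3n (9.25 CPM in control, 71.3 in Dox) to Cst7 (131 in control, 6.60 in Dox).

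Of the 4 largest ratios above 0, those of 2 acute-phase genes were also above 0 in the rest of the Dox library. Serpina3n, a serine protease inhibitor, was at 9.25 CPM in control and 71.3 in Dox, with a log2 ratio of 2.91 (2.08 to 3.91), and A2m, the protease inhibitor alpha-2-macroglobulin, was at 15.9 and 67.3, with a log2 ratio of 2.07 (1.36 to 2.85). In all other cells the log2 ratios were 3.08 and 1.99. In T or NK cells Serpina3n went from 16.0 to 83.7 CPM and A2m from 23.7 to 88.3, levels at or above those of the C1q-positive cells in each library. No C1q-positive cell held more than 3 UMIs of Serpina3n or 5 of A2m. Cox8b, a subunit of cytochrome oxidase, followed the same course, with 29.1 and 81.9 CPM in C1q-positive and 32.8 and 70.9 in T or NK cells. These 3 genes thus stood at similar levels in C1q-positive cells and in the lymphocytes of the same library.

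Most interferon-response genes tested had ratios above 0, and Rsad2 had the largest. These are genes switched on by interferons, whose products detect or restrict viruses. Of 57 genes listed, 30 were tested, of which 12 passed the minimum only through Dox, as did 3 of the 4 genes at least 2-fold higher (Rsad2, Ifit2 and Ifi47, but not Irf7). The median log2 ratio of these 30 was 0.42. With the minimum on the mean of both libraries, 24 genes were left, of which 2 were at least 2-fold higher (against 0.426% of all genes) and none lower. Of these 24, 7 were still under 50 CPM in control, among them 1 of the 2 higher genes (Rsad2). Their median was 0.31, against 0.01 over all genes, and 12 of 24 counting intervals lay above 0 and 1 below, against 10.3% and 9.98% of all genes. In all other cells the median of the same 24 genes was -0.04, against -0.06 over all genes, and single members were above 0 there, with 0.47 (0.44 to 0.49) for Bst2 and 0.23 (0.17 to 0.29) for Irf7. In C1q-low antigen-presenting cells their median was -0.23. With every cell thinned to 2000 UMIs the median was 0.12, and with a minimum of 200 UMIs a gene it was 0.14, both from 0.42, so its size depended on these settings.

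Rsad2 (viperin, an antiviral enzyme) was the clearest of them. It was at 28.4 CPM in control (43 UMIs) and 127 in Dox (96 UMIs), with a log2 ratio of 2.15 (1.62 to 2.71). In T or NK cells it was at 7.63 CPM in control and 5.81 in Dox, and in C1q-low antigen-presenting cells at 14.03 and 11.8. Among cells thinned to 2000 UMIs, 4.49% of control (2.26 to 7.89) and 13.9% of Dox C1q-positive cells (8.17 to 21.6) had an Rsad2 UMI, against 2.03% and 0.543% of T or NK cells. Without thinning the shares were 7.83% and 15.7%, against 2.62% and 2.11% of T or NK cells, whose median depth of 3730 and 3926 UMIs was close to that of the C1q-positive cells. The 5 Dox cells with most of its UMIs held 69.8% of them, so the level over the library rested on few cells while the share counts every cell alike. By group, Rsad2 was at 45.3 CPM in control and 120 in Dox in group 1, 20.5 and 203 in group 2 and 12.2 and 217 in group 4. In group 3 it was at 63.4 and 31.9 CPM, the other way, with 19 and 5 UMIs. Of the 45 Dox UMIs in group 4, 28 were from 1 cell.

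Irf7, a transcription factor that amplifies the interferon response, was at 79.3 CPM in control and 176 in Dox, with a log2 ratio of 1.15 (0.78 to 1.52). That ratio was 0.85 without the richest cell, which held 36 of 133 Dox UMIs, and 0.65 with thinned cells. Group 4 held the widest difference, with Irf7 at 30.5 CPM in control and 309 in Dox, while group 3 was at 96.8 and 102. Of the 64 Dox UMIs of Irf7 in group 4, 36 were from 1 cell. Thinned, 14.7% of control and 20.9% of Dox cells had an Irf7 UMI, intervals that overlap, against 16.6% and 15.2% of T or NK cells (24.6% and 37.1% against 24.6% and 26.8% without thinning). Ifit2, which binds foreign RNA, was at 24.4 and 63.4 CPM, 1.37 (0.73 to 2.03), and the GTPase gene Ifi47 at 23.1 and 51.5 CPM, 1.15 (0.46 to 1.86). The thinned value of Ifi47 was -0.03, and the thinned shares of cells with Ifit2 were 4.49% in control and 6.09% in Dox (9.25% and 10.0% without thinning). Ifit3 was at 42.3 and 80.6 CPM. The 3 most abundant genes of the list moved less. Ly6e was at 809 and 1002 CPM, Bst2 (tetherin, which holds virus particles at the membrane) at 620 and 909, and Ifi27l2a at 634 and 750. Ifit1, Irf1 and Cxcl10 were on the other side, with log2 ratios of -0.15, -0.20 and -0.28. RPE cells of the same libraries also had higher Irf7 and Ifit3 in Dox, with log2 ratios of 1.03 and 1.10, and 0.15 for Rsad2.

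The sequence before the start of these genes is shown because interferon-induced factors are known to bind paired GAAA boxes. The letters GAAANNGAAA were searched on both strands in the 250 bases before the start of each gene (RefSeq, GRCm38.p6), where they may overlap in runs of boxes. Of the 30 genes tested, 23 had an entry, and 11 of these 23 held the letters, as did 3.46% of all genes with an entry. Of the 13 matched genes whose counting interval lay above 0, 7 held them. Capitals mark the letters in Rsad2, Ifit3 and Bst2, which were higher in Dox, and in Cxcl10, which was not. Irf7, Ifit2 and Ifi47 held none in this window.
Rsad2 (chr12:26456453-26456702, minus strand): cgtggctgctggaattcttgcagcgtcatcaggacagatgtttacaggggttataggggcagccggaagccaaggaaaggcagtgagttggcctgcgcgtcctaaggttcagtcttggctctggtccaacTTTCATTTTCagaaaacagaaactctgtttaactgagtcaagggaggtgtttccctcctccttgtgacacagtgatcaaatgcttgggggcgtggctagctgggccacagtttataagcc
Ifit3 (chr19:34583279-34583528, plus strand): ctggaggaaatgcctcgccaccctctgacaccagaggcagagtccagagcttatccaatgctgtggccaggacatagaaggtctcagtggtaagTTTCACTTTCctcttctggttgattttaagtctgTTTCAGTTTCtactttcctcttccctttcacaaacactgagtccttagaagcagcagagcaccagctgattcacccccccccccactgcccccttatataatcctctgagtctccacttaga
Bst2 (chr8:71537473-71537722, minus strand): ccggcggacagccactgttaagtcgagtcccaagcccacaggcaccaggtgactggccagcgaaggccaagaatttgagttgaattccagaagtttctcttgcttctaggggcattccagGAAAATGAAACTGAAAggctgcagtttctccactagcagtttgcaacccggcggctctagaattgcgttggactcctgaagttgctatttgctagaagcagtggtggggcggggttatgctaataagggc
Cxcl10 (chr5:92348890-92349139, minus strand): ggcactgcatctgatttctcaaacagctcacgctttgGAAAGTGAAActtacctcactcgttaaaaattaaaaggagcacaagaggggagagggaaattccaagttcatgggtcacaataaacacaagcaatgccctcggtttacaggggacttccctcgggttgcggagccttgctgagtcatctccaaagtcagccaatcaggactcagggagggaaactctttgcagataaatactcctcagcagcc
The match stood 120 bases before the start of Rsad2, at 156 and 122 in Ifit3, at 130 and 124 in Bst2 and at 213 in Cxcl10. Genes with the letters were thus found on both sides of 0.

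Of the leading genes of group 4, Gpnmb, Fabp5, Atp6v0d2, Fabp4 and Cd300lf were past 2-fold higher in Dox, with sums carried by few cells. Cst7 was far lower, and its control sum was carried by few cells too. Gpnmb was at 1423 CPM in control and 3312 in Dox, with a log2 ratio of 1.22 (1.14 to 1.30), but 1.22 became 0.94 without the richest cell, 0.27 by the mean of cells and 0.22 with thinned cells. Gpnmb was at 4158 CPM in control and 11372 in Dox in group 4, close to level in groups 2 (402 and 450) and 3 (120 and 108), and lower in Dox in groups 1 (834 and 360) and 5 (1816 and 285). Group 6 held 159 and 52.3 CPM, from 15 and 2 UMIs. The Dox cells with most Gpnmb held 664 and 518 of its 2508 UMIs. Thinned, 42.9% of control and 34.8% of Dox cells had a Gpnmb UMI, against 36.5% and 18.5% of T or NK cells (60.9% and 47.9% against 52.1% and 32.1% without thinning). The intervals of the thinned C1q-positive shares overlap. Fabp5 was at 1029.8 CPM in control and 2856 in Dox, with 107 and 44 cells, a log2 ratio of 1.47 that fell to 0.59 by the mean of cells. By group, Fabp5 was higher in Dox only in group 4 (2925 and 9712 CPM). Spp1 was at 891 and 1558 CPM, with 85.8% of the Dox UMIs in 5 cells. Its shares of cells ran the other way. Thinned, 38.8% of control (32.6 to 45.2) and 22.6% of Dox cells (15.3 to 31.3) had an Spp1 UMI. T or NK cells stood at 34.5% and 4.89%, and C1q-positive cells without thinning at 58.4% and 30.7%. Group 4 alone held more Spp1 in Dox (2510 and 5459 CPM), and every other group held less. Atp6v0d2 was at 48.2 and 139 CPM in 20 and 16 cells, with a log2 ratio of 1.52 (1.08 to 1.98) that was 0.60 by the mean of cells and 0.42 with thinned cells. Fabp4, another fatty acid carrier, was at 25.1 and 74.0 CPM in 14 and 15 cells, 1.55 (0.94 to 2.19).

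The same group held the gene with the largest opposite ratio. Cst7 had 198 UMIs in 16 control cells and 5 UMIs in 3 Dox cells, which is 131 CPM in control and 6.60 in Dox, with a log2 ratio of -4.17 (-5.95 to -3.06). It was -4.47 without the richest cell and -1.21 by the mean of cells, past 2-fold in each of 17 alternatives. Of the control UMIs of Cst7, 82.8% were in 5 cells. T or NK cells, which also make Cst7, had 117 CPM in control and 138 in Dox. Over the 18 lipid-associated genes tested, 2 were at least 2-fold higher (Gpnmb and Fabp5, against 0.769% of all genes) and 1 lower (Cst7, against 1.5%). Cst7 passed the minimum only through control, where it was high, so its call is a description. The median log2 ratio of the 18 was 0.10. That median was -0.16 with thinned cells and -0.12 by the mean of cells. Apoe, the main carrier of lipid in this list, was at 24978 CPM in control and 21233 in Dox, and within group 4 at 44583 and 32770, Ctsb at 6164 and 6665, Ctsd at 4881 and 5635 and Trem2 at 805 and 848.

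Other genes past 2-fold were few-celled or spread. Cd24a, a surface glycoprotein, was at 13.9 CPM in 13 control cells and 85.8 in 11 Dox cells, a log2 ratio of 2.61. Mfge8, which bridges dying cells to phagocytes, was at 34.3 and 106 CPM in 36 and 17 cells, 1.62 and 1.06 without the richest cell. AY036118 was at 349 and 1149 CPM, but 487 of its 870 Dox UMIs came from 1 cell and the log2 ratio without it was 0.64 in place of 1.72. Clec10a was at 19.8 and 50.2 CPM in 23 and 21 cells, 1.34 (0.61 to 2.08).

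Most chemokines and cytokines had ratios below 0. Of 24 genes tested, 1 was at least 2-fold lower (Ccl5, against 1.5% of all genes) and none higher. Counting intervals lay below 0 for 15 of 24 and above 0 for 4, against 10.6% of all genes on each side, and the median log2 ratio was -0.29. These genes are abundant, and an abundant gene has a narrow interval. Their summed level was 33285 CPM in control and 24356 in Dox. Cxcl2, which attracts neutrophils, was at 9799 CPM in control and 6527 in Dox, with a log2 ratio of -0.59 (-0.63 to -0.54). Ccl4 was at 9291 and 6191 CPM, -0.59, and Ccl3 at 2924 and 1836, -0.67. Il1b was at 1849.6 and 1257 CPM, -0.56, Tnf at 1439 and 1248, -0.20, and Il1a at 196 and 114, -0.78. By group, Il1b ran the other way in group 1, with 589 CPM in control and 1269 in Dox. It was lower in Dox in groups 2 (1868 and 723), 3 (4454 and 2740), 4 (1080 and 627) and 5 (1482.5 and 1275). Tnf was at 1410 and 693 CPM in the lowest MHC class II set and at 1554 and 1878 in the highest. In the sets between, Tnf was lower in Dox. The median of the 24 genes in all other cells was -0.54 and in C1q-low antigen-presenting cells -0.49.

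Single chemokines stood apart from that course. Ccl5, a chemokine of lymphocytes, was at 316 CPM in control and 70.0 in Dox, with a log2 ratio of -2.16 (-2.61 to -1.76), in 35 and 16 cells. T or NK cells held it at 7058 and 6862 CPM, and the part of their RNA in these values was not tested. Ccl12 was level at 598 and 588 CPM, Ccl8 was at 140 and 202 CPM, 0.53, and Ccl6 at 188 and 302 CPM, 0.69. Secreted factors known from senescent cells had 11 of 15 intervals below 0 (10.6% of all genes), none above and a median of -0.41. This list shares Ccl2, Cxcl1, Cxcl2, Il1a, Il1b and Tnf among its tested genes with the chemokines. Its median was -0.17 in all other cells and -0.45 in C1q-low antigen-presenting cells. Of its 15 genes, 2 passed the minimum only through control and 1 only through Dox. The only gene past 2-fold, a lower one (against 1.5% of all genes), was among those 2.

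Iron-handling genes had ratios above 0, though none of 2-fold. Of the 10 tested, 2 passed the minimum only through Dox. With the minimum on the mean of both libraries, 8 were left, all with a ratio above 0 (52.0% of all genes) and 7 with an interval above 0 (10.3% of all genes). Their median log2 ratio was 0.41, and 0.45 over the 10, against -0.10 in all other cells. Fth1 and Ftl1, the ferritin chains that store iron, were at 19115 and 13029 CPM in control and 27552 and 17176 in Dox, log2 ratios of 0.53 and 0.40. By the mean of cells these were 0.20 and 0.14. Hmox1, which frees iron from heme, was at 237 and 462 CPM, 0.96, and 25.3% of thinned control cells and 35.7% of thinned Dox cells had a UMI of it, against 2.36% and 3.80% of T or NK cells (41.3% and 47.1% of C1q-positive cells without thinning). The intervals of the thinned C1q-positive shares overlap here too, and 5 cells held 55.1% of the Dox UMIs. Cd163, the receptor for hemoglobin bound to haptoglobin, was at 35.0 and 63.4 CPM, 0.86. Trf, the transferrin gene, was at 1793 and 2491 CPM, and T or NK cells held 1806 and 2525, so this member matched the level in lymphocytes. Ferritin genes have many processed pseudogenes, and how the counting treated shared reads was not tested.

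**Figure D5:**
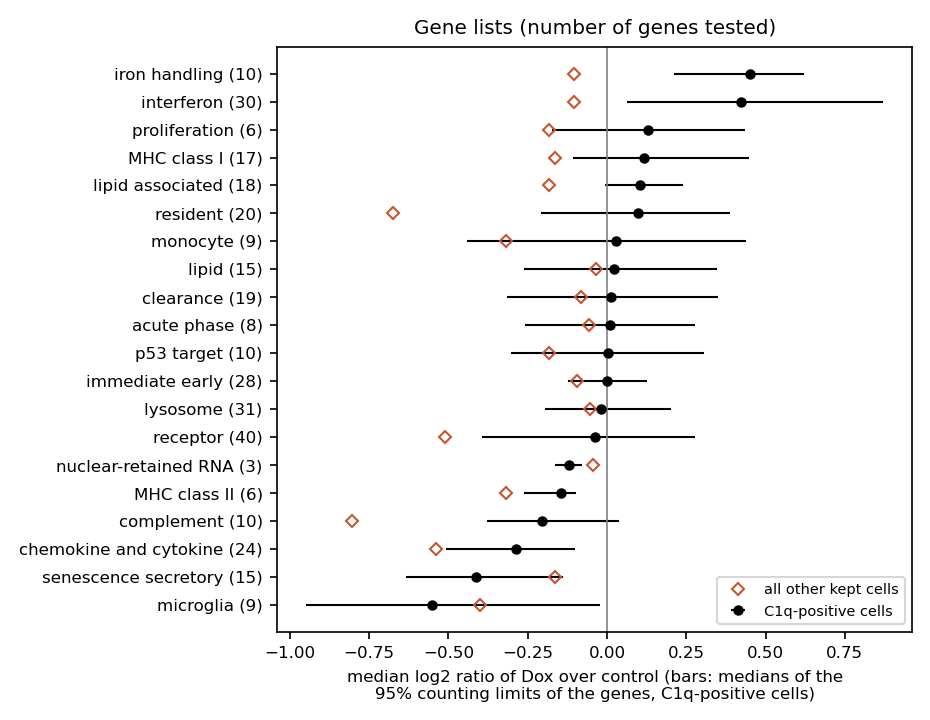
Median log2 ratio of Dox over control for each gene list, with filled points and bars for C1q-positive cells and open diamonds for all other kept cells. The iron-handling (0.45) and interferon (0.42) lists lay highest in C1q-positive cells and the microglia list (-0.55) lowest. Genes had to reach 50 CPM in either library, and some passed only through the library where they were higher. With the minimum on the mean of both libraries these medians were 0.41, 0.31 and -0.55.

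By summed levels, no antigen presentation or complement gene tested passed 2-fold. Over all genes 0.769% were higher and 1.5% lower by that much, so none in lists this small is near that share. Of the 6 MHC class II genes tested, 4 had a counting interval below 0 and none above (10.6% of all genes on each side), and their median log2 ratio was -0.15. Cd74 was at 19227 CPM in control and 17102 in Dox, H2-Aa at 4934 and 4119 and H2-Eb1 at 3976 and 3651. The list median ranged from -0.02 to -0.40 over the alternatives. The median cell differed more, with 14324 CPM of 4 summed MHC class II genes in control and 4982 in Dox. It held 7940 and 3322 CPM of Cd74 and 2414 and 807 of H2-Aa. The upper quartiles of the 4 summed genes, 48857 and 43401 CPM, lay closer. The 17 MHC class I genes had a median of 0.12, with H2-D1 at 2871 and 3113 CPM, B2m at 2367 and 2489 and H2-K1 at 1408 and 1484, and closely related H2 genes may share reads. Of 10 complement genes tested, 4 had an interval below 0 and none above (10.6% of all genes on each side), and the median was -0.20. C1qa, C1qb and C1qc, which chose the cells, are among the 4, so this count is a description. The C1q chains had log2 ratios of -0.47 (C1qa), -0.33 (C1qc) and -0.29 (C1qb), which became -0.14, -0.10 and -0.17 by the mean of cells. The difference lay mainly in group 4, given above, and group 1 ran the other way, with C1qa at 3890 CPM in control and 4386 in Dox and C1qc at 3455 and 4151.

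By summed levels, lists of macrophage kinds were close to level, except that of microglia. Of 20 resident macrophage genes tested, 1 (Clec10a) was at least 2-fold higher, against 0.769% of all genes. Clec10a passed the minimum only through Dox. With the minimum on the mean of both libraries, none of the 18 genes left was past 2-fold. The median of the 20 was 0.10, with Wfdc17 at 864 and 899 CPM and Pf4 at 670.5 and 939. Of 9 monocyte genes tested none was past 2-fold, which is near the shares of all genes (0.769% higher and 1.5% lower). Their median was 0.03, and Cd14 led at 1682 and 1245 CPM, followed by Cybb at 698 and 689 and S100a6 at 424 and 358. The 9 microglia genes had a median of -0.55, with 5 intervals below 0 (10.6% of all genes). Of these 9, 2 passed the minimum only through control. With the minimum on the mean of both libraries, 8 were left. Their median was -0.55, with 5 intervals below 0 (9.98% of all genes). The 9 genes had medians of -0.40 in all other cells and -0.31 in C1q-low antigen-presenting cells. Olfml3 was at 187 CPM in control and 114 in Dox, Tmem119 at 69.4 and 42.3, P2ry12 at 54.8 and 37.0 and Cx3cr1 at 265 and 239. Sparc, which is in this list but is also made by fibroblasts, was the only one past 2-fold (lower, against 1.5% of all genes). Among thinned cells, P2ry12 was seen in 8.57% of control and 6.96% of Dox cells (17.1% and 15.7% without thinning), and in 0.338% of thinned control T or NK cells.

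The remaining lists had medians within 0.14 of 0. They were receptors (40 tested, -0.04, led by Fcer1g, Tyrobp and Cd14), clearance of dying cells (19 tested, 0.01), lysosome (31 tested, -0.02, led by Ctsb, Cst3 and Psap), lipid (15 tested, 0.02), immediate early genes (28 tested, -0.00, led by Junb, Zfp36 and Fos), proliferation (6 tested, 0.13), acute phase (8 tested, 0.01) and nuclear-retained RNA (3 tested, -0.12). Among these lists, 2 of the 8 acute-phase genes were at least 2-fold higher (Serpina3n and A2m) and 1 lower (Saa3), 2 of the 15 lipid genes were higher (Fabp5 and Fabp4) and 1 of the 19 clearance genes was (Mfge8), against 0.769% and 1.5% of all genes. Serpina3n, A2m, Fabp4 and Mfge8 passed the minimum only through Dox, and Saa3 only through control. Of the 10 p53 target genes tested none was past 2-fold, which is near the shares of all genes just given, and the median was 0.00. Counting intervals lay below 0 for 2 of the 10 and above 0 for none, against 10.6% of all genes on each side. Cdkn1a (p21, which halts the cell cycle) was at 524 CPM in control and 577 in Dox, with a log2 ratio of 0.14 (-0.03 to 0.31), Gdf15 at 2070.2 and 1652, and Btg2 at 883 and 820. Doxorubicin is known to damage DNA and to act on p53, and the counting interval of Cdkn1a spans 0.

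Among the 10 genes with the smallest ratios were Acta2, Myl9, Tagln and Myh11, which encode parts of the contractile apparatus of smooth muscle. Acta2, the actin of smooth muscle, was at 337 CPM in control and 44.9 in Dox, but 218, 96 and 84 of its 510 control UMIs came from 3 cells. Its log2 ratio of -2.89 (-3.45 to -2.41) became -0.76 without group 5 and -0.71 without the cells of highest doublet score. Myl9 was at 161 and 25.1 CPM, -2.64, and -0.78 without group 5. Tagln was at 127 and 19.8 CPM and Myh11 at 66.7 and 14.5, and their log2 ratios of -2.64 and -2.14 became -0.26 and -0.21 without group 5. None of these 4 genes was past 2-fold without group 5. Sparc was at 526 and 83.2 CPM, in 117 and 39 cells, and its log2 ratio of -2.65 was -2.73 without group 5, -1.51 with thinned cells and -1.01 by the mean of cells. Sparcl1 was at 93.1 and 22.4 CPM, -2.02, which became -1.49 without group 5 and -0.98 with thinned cells.

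Melanocyte genes were lower as well. Pmel was at 458 CPM in control and 148 in Dox, Dct at 809 and 268, Mlana at 346 and 103 and Tyrp1 at 314 and 81.9. In T or NK cells Pmel went from 799 to 136 CPM, Dct from 1471 to 271, Mlana from 648 to 87.2 and Tyrp1 from 575 to 94.2. The log2 ratios in C1q-positive cells lay between -1.93 (Tyrp1) and -1.59 (Dct), and those in all other cells between -1.73 (Pmel) and -1.13 (Dct). Syt4, at 52.8 and 11.9 CPM, had a log2 ratio of -2.08 in C1q-positive and -1.56 in T or NK cells. These values show the genes moving in both classes, and the part of free RNA in the C1q-positive cells was not tested.

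Saa3, an acute-phase protein made by macrophages and stromal cells, had the second smallest ratio. It was at 61.4 CPM in control, with 93 UMIs in 10 cells and 44 of them in 1 cell, and at 3.96 in Dox, with 3 UMIs in 2 cells. The log2 ratio was -3.74 (-6.26 to -2.36), and -3.99 without the richest control cell. All other cells held 1.28 and 1.60 CPM.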

How the data were processed

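Tissue of 2 groups was profiled by droplet 5′ single-cell RNA-seq, 1 library a group. The authors aligned reads to mm10 and counted UMIs with Cell Ranger (4.0.0 per the file headers), and the deposited values are raw counts of UMIs for 32285 genes and 36030 cells, 117731270 UMIs in control and 103997248 in Dox. Filters followed the gate given in the report. The cells, gene lists and comparison classes were chosen with earlier results of these data known. UMIs were summed over the C1q-positive cells of a library and divided by their total to give CPM. Ratios had 0.5 UMIs added, and their 95% intervals are exact conditional binomial intervals. Shares have exact Clopper-Pearson intervals, and shares of cells with a UMI were read after thinning to 2000 UMIs (36 control and 25 Dox C1q-positive cells were shallower and left out). No p-value was computed. A fold limit of 2 was the call. A self-test on simulated Poisson counts checked how ratios and intervals were calculated. It held no spread between cells, so it does not cover sums that rest on few cells. Named genes were the 10 largest and 10 smallest ratios of Dox over control, the 15 leading genes over all other cells, 5 markers, and for each of 20 lists the genes past 2-fold and the 3 most abundant; further genes were named after their values were seen, to describe groups, lists and neighbours. Some genes that this rule names are not reported here. Clustering used scanpy 1.11.5 (log-normalised counts, 2000 variable genes, 20 components, 15 neighbours, Leiden resolution 0.5). The leading genes of a group had at least 100 CPM summed over the group and a UMI in at least 20% of its cells. Doublets were kept. Scrublet scores at an expected 16.2% of control and 12.4% of Dox cells marked 11 and 5 C1q-positive cells, which an alternative left out. The code ran on pandas 2.3.3 and scipy 1.17.1 under Python 3.11.15, with numpy 2.4.6.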

Additional observations from a re-analysis of the deposited data

Results flagged for a closer look

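A set of 9 genes that were at least 2-fold higher in Dox in C1q-positive cells had a counting interval below 0 in all other cells. The genes are listed because of these opposite signs, and 7 of them (not Fabp5 or Gpnmb) were under 50 CPM in control and passed the minimum through Dox alone, so the signs are a description. The difference itself was not tested, since each group is 1 library. All other cells, here and above, are a mixture of cell types whose shares differed between libraries. RPE cells were 6.86% of kept cells in control and 9.24% in Dox, and fibroblasts 39.9% and 36.2%. The part of this mixture in the ratios of all other cells was not tested. The log2 ratios of Dox over control in C1q-positive and in all other cells were 2.61 and -0.38 for Cd24a, 2.15 and -0.31 for Rsad2, 1.62 and -0.22 for Mfge8, and 1.52 and -0.74 for Atp6v0d2. They were 1.47 and -0.17 for Fabp5, 1.37 and -0.33 for Ifit2, 1.34 and -0.49 for Clec10a, 1.22 and -0.26 for Gpnmb, and 1.15 and -0.13 for Ifi47. The ratios of Atp6v0d2, Fabp5 and Gpnmb in thinned C1q-positive cells were 0.42, 0.56 and 0.22, and that of Ifi47 was -0.03.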

How the results depend on the processing

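No paired analysis was possible because each group is 1 library. Shares, counts and medians gave 426 values under alternatives, of which 392 stayed within the counting interval, or within 1.5 times the count. Direction was not part of this rule, so a median whose interval spans 0 could change sign and still be among them. C1q limits of 5 UMIs and 1000 CPM gave shares of 1.76% in control and 1.13% in Dox, and 20 UMIs and 4000 CPM gave 1.09% and 0.609%. The control share was 1.23% with Rpe65 under 3 UMIs, 1.16% with Dcn under 500 CPM and 1.59% without the highest Scrublet scores. The 22 genes at least 2-fold higher in Dox became 153 with a minimum of 20 UMIs and no CPM minimum and 4 with 200 UMIs, where more or fewer genes are tested, and the 43 lower genes became 322 and 16, and 26 with thinned cells. With 50 CPM as the mean of both libraries, chosen after seeing the data, they became 11 and 28. The median of the lipid-associated list (0.10) was -0.16 with thinned cells and -0.12 by the mean of cells, and that of immediate early genes (-0.00) was 0.18 with thinned cells. The MHC class II median (-0.15) was -0.023 with C1q at 5 UMIs, -0.40 with Dcn under 500 CPM, -0.34 without group 5 (chosen after seeing the data), -0.30 with thinned cells, -0.31 by the mean of cells and -0.058 with 20 UMIs. The nuclear-retained RNA median of 3 genes (-0.12) was -0.33 and -0.20 with C1q at 5 and 20 UMIs, -0.19 with Rpe65 under 3 UMIs, 0.025 with Dcn under 500 CPM, 0.16 with thinned cells and -0.023 by the mean of cells. The median log2 ratio of the leading genes and markers over all other cells (7.27) was 6.96 with Rpe65 under 3 UMIs, 7.05 with Dcn under 500 CPM, 7.47 without the highest Scrublet scores, 7.49 with thinned cells and 6.58 by the mean of cells. Of 26 named genes past 2-fold in Dox over control, 12 were past it in all 17 alternatives, and Ifi47 (1.15) turned to -0.031 with thinned cells. The cause of these shifts was not tested. With 1 library a group, differences between mice are not measured, and at 757261 UMIs in the Dox cells a level under 50 CPM rests on fewer than 50 UMIs.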
